A study of Mus musculus with 2 samples.

Results

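The cholesterol and fatty acid synthesis genes followed here are 8 mouse genes: Hmgcs1, Idi1, Fdps and Sqle of the cholesterol pathway, the regulators Insig1 and Srebf2, and Scd1 and Fasn of fatty acid synthesis. Members were measured where a probe carried that gene as its single symbol in the platform annotation. Of the 8 members 5 were measured, all on both arrays, out of 10793 named genes with a value on either array. The 5 were Hmgcs1, Idi1 and Fasn with 2 probes each and Fdps and Sqle with 1 probe each, 8 probes in all. Srebf2 lay only on 5 probes shared with other genes, and Insig1 and Scd1 had no probe under their names in the annotation used here, so no value is given for these 3.

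The samples were mouse tenocytes, the fibroblasts of tendon, which the series title places in the flexor tendon, on 2 two-colour arrays. Cells sheared for 12 h at 50 rpm were set against control tenocytes of 12 h, and pooled cells sheared for 6 h against pooled control cells of 6 h. Sheared RNA was in Cy5 and control RNA in Cy3 on both arrays. No shear speed was given for 6 h, and pooling was named only for 6 h. No strain, age, medium or serum condition was given in the labels. There was 1 array per time point and no dye swap, so no difference could be tested and no p-value is given.

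Cholesterol is built from acetyl-CoA through mevalonate, isoprenoid diphosphates, squalene and lanosterol, and fatty acids are built from malonyl-CoA by fatty acid synthase and then desaturated and elongated. In most animal cells both pathways are driven by the SREBP transcription factors, which are held in the endoplasmic reticulum by SCAP and the INSIG proteins while sterols are plentiful and are cut free by proteases in the Golgi when sterols run low. In fibroblasts these pathways supply membrane lipid, and the isoprenoids also provide the lipid anchors of Ras and Rab proteins.

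SREBPs bind sterol regulatory elements, usually beside sites for NF-Y and Sp1. The 250 bases before the annotated start are shown for Hmgcs1 and Idi1, the cholesterol enzymes among the members for which a window was found. No window was found for Fdps and Sqle. Both windows shown are RefSeq sequence of GRCm38.p6, plus strand, chr13:119690101-119690350 for Hmgcs1 and chr13:8885356-8885605 for Idi1. Capitals mark every match on either strand to the sterol regulatory element core TCACNCCAC, the NF-Y box CCAAT, the Sp1 box GGGCGG and the E-box CACGTG.
Hmgcs1: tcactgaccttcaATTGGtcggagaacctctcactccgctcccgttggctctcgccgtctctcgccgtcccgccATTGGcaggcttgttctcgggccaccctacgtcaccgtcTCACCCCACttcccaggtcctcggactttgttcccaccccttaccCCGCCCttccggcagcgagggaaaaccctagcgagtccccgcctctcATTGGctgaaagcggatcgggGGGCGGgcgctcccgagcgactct
Idi1: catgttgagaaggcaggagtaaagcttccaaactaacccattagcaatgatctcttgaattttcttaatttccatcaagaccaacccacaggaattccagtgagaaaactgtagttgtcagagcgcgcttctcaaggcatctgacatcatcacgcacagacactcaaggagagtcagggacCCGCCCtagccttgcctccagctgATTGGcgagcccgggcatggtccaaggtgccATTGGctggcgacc

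Hmgcs1 held 1 match to the sterol element core, TCACCCCAC, from 137 to 129 bases before the start, with 3 NF-Y boxes and 2 Sp1 boxes. Idi1 held 2 NF-Y boxes and 1 Sp1 box, and neither window held the E-box. The core was found in the windows of 1.22% of 27025 genes, the NF-Y box in 37.5%, the Sp1 box in 35.4% and the E-box in 6.86%. Among protein-coding genes on both arrays those shares were 1.32%, 40.8%, 61.5% and 9.58%. Promoter windows were found for 5 of the 8 members, and all 5 held the NF-Y box. Fasn held 3 NF-Y boxes and none of the other motifs. Its window, not printed, lies inside the annotated span of the gene. Of the 21 cholesterol synthesis enzymes listed for this comparison 16 had a window, of which 15 held the NF-Y box, 15 the Sp1 box and 1, Hmgcs1, the sterol element core. Of 22 fatty acid genes with a window, 14 held the NF-Y box, 15 the Sp1 box and 1 the sterol element core. These are matches of letters, not measured binding. Only the exact patterns were counted, so a window without a match may still hold a variant site.

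All values below are log2 ratios after subtraction of each array's median over all spots, and a gene's value is the median of its probes. The direction is likely sheared over control, and the base of 2 is an assumption. Were it control over sheared, all signs below would turn round. The deposited medians were -0.48 at 12 h and -0.32 at 6 h, and values without centring are lower by these amounts. The error available is the SD among a gene's probes, which pooled over all genes was 0.86 at 12 h and 0.74 at 6 h. A pooled error of 0.60 at 12 h and 0.52 at 6 h follows for a gene with 2 probes. It covers clones and spots, not cultures. Genes 1.5-fold or more from 0, which is 0.58 on the log2 scale, are called higher or lower below. Over all genes, 24.4% were higher and 33.1% lower at 12 h by this measure, and 18.2% were higher and 31.3% lower at 6 h. Without centring these shares were 13.4% and 51.5% at 12 h, and 8.35% and 43.7% at 6 h, so counts of calls move with this choice, and those of the members and lipid lists are given both ways.

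At 12 h the members of the cholesterol pathway did not read in one direction. Fdps and Idi1 were higher there, Hmgcs1 and Sqle were lower and Fasn lay near 0. At 6 h Fdps, Idi1, Sqle and Fasn were above 0, and Hmgcs1 was below 0 with its probes on opposite sides of 0. By the 1.5-fold measure 2 of 5 members were higher and 2 lower at 12 h, and 2 were higher and none lower at 6 h. The same genes, Fdps and Idi1, were the higher ones on both arrays. With 5 measured genes, these counts are too few to be set apart from the shares of all genes. The members' median was 0.0895 at 12 h and 0.26 at 6 h, beside -0.14 and -0.11 for all genes. Both medians fell below 0 without centring, to -0.39 at 12 h and -0.06 at 6 h, and the counts were then 1 higher and 2 lower at 12 h and 2 higher and 1 lower at 6 h. With single members left out the 12 h median ran from -0.34 to 0.36, so its sign rests on which members are counted. With centring, 1 member was 2-fold higher at 12 h and 2 at 6 h, where 14.5% and 6.19% of all genes were. No member was 2-fold lower with centring, while 20.5% of all genes were at 12 h and 18.9% at 6 h. Without centring Hmgcs1 and Sqle, at -1.25 and -1.24, were 2-fold lower at 12 h, and no member was 2-fold higher on either array. The 2-fold shares of all genes without centring were not computed.

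Hmgcs1, the synthase that makes HMG-CoA at the entry to the mevalonate pathway, stood at -0.77 at 12 h (probe SD 0.92, 2 probes) and -0.45 at 6 h (probe SD 2.02). Its first probe read -1.42 at 12 h and 0.98 at 6 h. The second read -0.12 at 12 h and -1.88 at 6 h. The probes thus swapped order between the arrays, and at 6 h they lay on opposite sides of 0. Their gap of 2.86 at 6 h was wider than in 97.0% of the 2859 genes with exactly 2 probes, whose median gap was 0.48. At 12 h the gap was 1.30, wider than in 77.4% of 2945 such genes. The 6 h value of Hmgcs1 therefore has no settled sign. The lower reading at 12 h, 1.71-fold, stands beside a pooled error of 0.60.

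Idi1, which isomerises isopentenyl diphosphate, stood at 0.63 at 12 h (probe SD 1.21, 2 probes) and 1.31 at 6 h (probe SD 1.48). One probe read -0.23 at 12 h and 0.26 at 6 h. The other read 1.49 at 12 h and 2.36 at 6 h. Both probes were above 0 at 6 h and on opposite sides at 12 h, and only the second was past 1.5-fold on either array. At 6 h Idi1 lay above 97.6% of all genes, a place that came from that probe alone. The gaps of 1.72 at 12 h and 2.10 at 6 h exceeded those of 85.2% and 92.5% of genes with 2 probes.

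Fdps, which joins isopentenyl units into farnesyl diphosphate, stood at 1.38 at 12 h and 1.01 at 6 h on 1 probe, or 2.60-fold and 2.01-fold higher. It was the highest member at 12 h and lay above 91.7% of all genes there and above 94.0% at 6 h. With centring each value was above the pooled SD of 1 probe on its array. No other probe checks it. Without centring Fdps stood at 0.90 at 12 h and 0.69 at 6 h, still past 1.5-fold, but the 6 h value was then below the pooled SD of 0.74.

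Sqle, squalene epoxidase, the first oxygen-requiring step of sterol synthesis, stood at -0.77 at 12 h and 0.26 at 6 h on 1 probe. It was the single measured member on opposite sides of 0 on the arrays, though without centring the 6 h value was -0.06. Its difference of -1.03 between 12 h and 6 h was close to the SD of 0.97 that 39327 probes showed between the arrays. The 12 h value of Sqle was smaller in size than the pooled SD of 1 probe, 0.86, and without centring it was -1.24.

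Fasn, the synthase that builds palmitate, was the member closest to 0, at 0.0895 at 12 h (probe SD 0.07, 2 probes) and 0.22 at 6 h (probe SD 0.15). Its probes read 0.14 and 0.04 at 12 h and 0.33 and 0.11 at 6 h. All lay within 1.5-fold of 0, and no other member had probes this close to each other. Without centring both gene values were below 0, at -0.39 and -0.11.

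**Figure D1:**
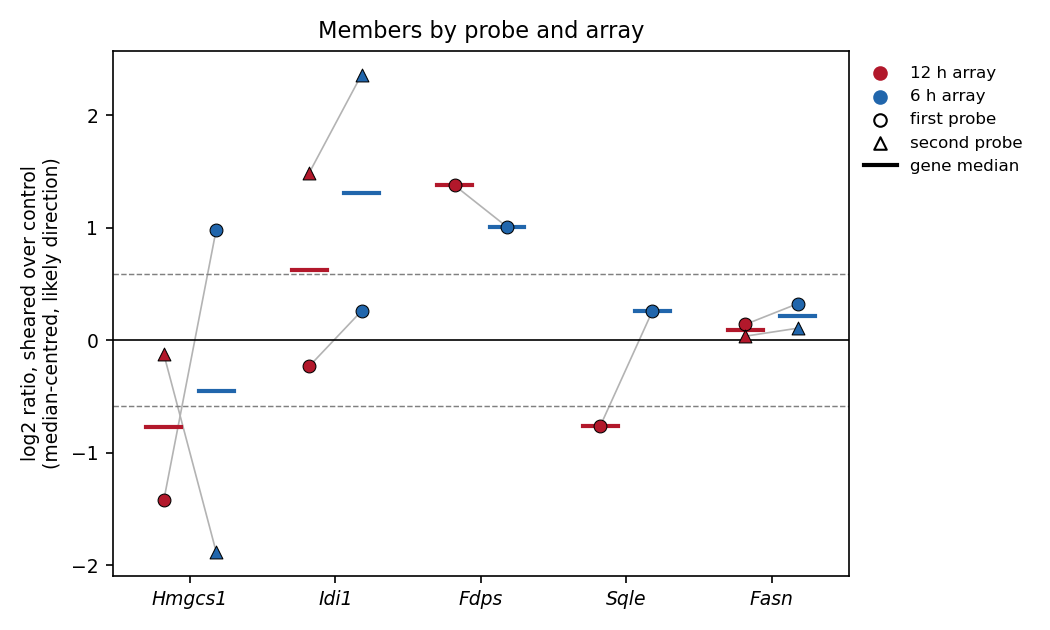
Log2 ratio of sheared over control (vertical axis, median-centred) for the 5 measured members, with the 12 h array left of the 6 h array. Symbols are single probes, grey lines join the same probe on both arrays, bars are gene medians and dashed lines mark 1.5-fold. The 2 probes of Hmgcs1 cross between the arrays, those of Idi1 stay apart by 1.72 at 12 h and 2.10 at 6 h, and those of Fasn stay near 0.

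Between the times, 4 of 5 members read lower at 12 h than at 6 h, with a median difference of -0.32, while the median difference of all 10288 genes on both arrays was 0.12. Fdps was the exception, at 0.37. Among single probes 6 of 8 read lower at 12 h, beside 43.0% of the 20416 probes with 1 symbol on both arrays. At 6 h 7 of the 8 probes were above 0, and at 12 h 4 were, beside 51.4% and 51.6% of those 20416 probes. Without centring, Sqle and the first Idi1 probe at -0.06 and the second Fasn probe at -0.215 joined the second Hmgcs1 probe below 0 at 6 h. At 12 h both Fasn probes then fell below 0, to -0.34 and -0.44, which left only Fdps and the second Idi1 probe above 0. The share of all probes above 0 without centring was not computed. Fasn moved by -0.13, Hmgcs1 by -0.32, Idi1 by -0.68 and Sqle by -1.03. The quartiles of all genes were -0.37 and 0.58, so Fasn, Hmgcs1 and Fdps lay within them and Idi1 and Sqle below. The Hmgcs1 value averages probe differences of -2.40 and 1.76. Time cannot be told apart here from pooling, named only for 6 h, or from shear speed, not given for 6 h.

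The wider cholesterol pathway was mixed on both arrays. Of 21 enzymes 15 were measured. By the 1.5-fold measure 6 were higher and 4 lower at 12 h, where the median was 0.20. At 6 h 4 were higher and 2 lower, and the median was 0.26. Without centring the balance at 12 h turned round, with 2 higher and 6 lower and a median of -0.28, and at 6 h 3 were higher and 3 lower, with a median of -0.06. Outside the members, 4 of 11 enzymes were higher and 2 lower at 12 h, and 2 were higher and 2 lower at 6 h. Without centring they numbered 1 higher and 4 lower at 12 h, and 1 higher and 2 lower at 6 h. Over all genes 24.4% were higher and 33.1% lower at 12 h with centring, and 13.4% and 51.5% without it. At 6 h those shares were 18.2% and 31.3% with centring, and 8.35% and 43.7% without it. Of the 9 enzymes with 2 or more probes 3 were higher and 3 lower at 12 h, beside 29.4% and 27.5% of all genes with that many probes.

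In the steps up to squalene, a division of the pathway made after the values were seen, 4 of 7 measured enzymes were higher and 1 lower at 12 h, with a median of 0.63. The kinases Mvk and Pmvk stood at 0.47 (probe SD 0.05) and 0.95 on 1 probe at 12 h, and at 0.11 (probe SD 0.15) and 0.55 at 6 h. Mvd, the mevalonate diphosphate decarboxylase, stood at 0.90 at 12 h (probe SD 0.73) and 0.01 at 6 h (probe SD 0.81). Fdft1, squalene synthase, stood at 0.085 at 12 h and 0.47 at 6 h, but its 4 probes had an SD of 1.03 and 1.05. The median of these 7 enzymes at 6 h was 0.47, with 2 higher and none lower. Without centring 1 was higher and 1 lower at 12 h, with a median of 0.15, and 2 were higher and 1 lower at 6 h. Beside these, 24.4% of all genes were higher and 33.1% lower at 12 h with centring, and 13.4% and 51.5% without it. The shares at 6 h were 18.2% and 31.3% with centring, and 8.35% and 43.7% without it.

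From squalene to cholesterol, 2 of 8 measured enzymes were higher and 3 lower at 12 h, with a median of -0.35, and 2 were higher and 2 lower at 6 h, with a median of 0.12. Without centring 1 was higher and 5 lower at 12 h, and 1 was higher and 2 lower at 6 h, with medians of -0.83 and -0.20. The stretches up to and after squalene thus each had 1 higher enzyme at 12 h on that scale. Shares of all genes at 12 h were 24.4% higher and 33.1% lower with centring, and 13.4% and 51.5% without it. For 6 h they were 18.2% and 31.3% with centring, and 8.35% and 43.7% without it. No difference between the stretches was tested. Cyp51, lanosterol demethylase, stood at 1.27 at 12 h and 0.84 at 6 h on 1 probe, and Lss, which closes the sterol rings, at -0.23 and -0.08. Msmo1, a sterol methyl oxidase, had the highest 6 h value of the list, 2.07 on 1 probe. The same probe read 0.62 at 12 h, where a second probe read -0.22. The isomerase Ebp was the post-squalene enzyme with the closest probes, at 0.63 at 12 h (probe SD 0.25, 3 probes) and 0.44 at 6 h (probe SD 0.23).

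The lower end of the sterol steps was held by Lbr, a sterol reductase that is also the lamin B receptor of the nuclear envelope. It stood at -1.33 at 12 h (probe SD 1.70, 3 probes) and -1.67 at 6 h (probe SD 1.26), and all its probes were below 0 on both arrays. Nsdhl, a sterol dehydrogenase, stood at -0.80 at 12 h with 6 probes that ran from -3.24 to 0.73, and at -0.01 at 6 h. Dhcr7, which completes cholesterol, stood at -0.47 at 12 h and -0.63 at 6 h on 1 probe. Of the 9 enzymes with several probes at 12 h, 4 had probes on both sides of 0, beside 38.6% of all genes with several probes.

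**Figure D2:**
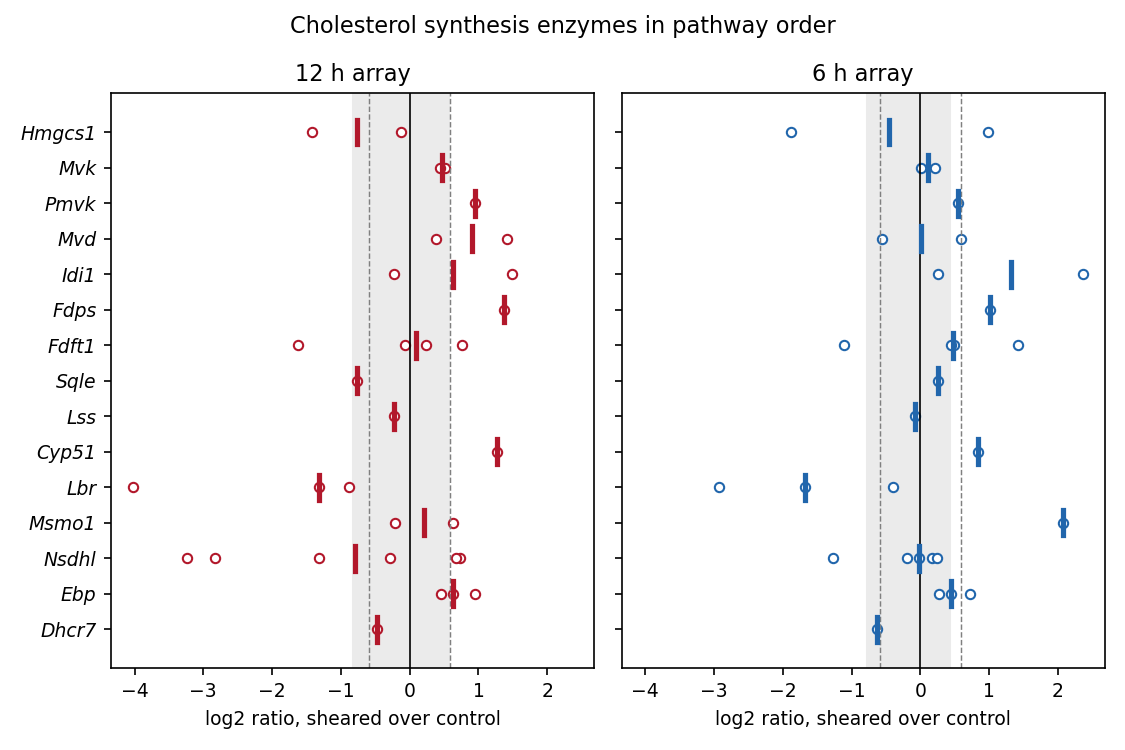
Log2 ratio of sheared over control (horizontal axis) for the 15 measured cholesterol synthesis enzymes in pathway order from top to bottom, 12 h array on the left and 6 h array on the right. Circles are single probes, bars gene medians, dashed lines 1.5-fold and the grey band the quartiles of all genes. Fdps and Cyp51 lie right of the 1.5-fold line on both arrays, Lbr left of it, and the probes of Nsdhl at 12 h spread from -3.24 to 0.73.

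The genes that control SREBP processing had medians of -0.12 at 12 h and -0.18 at 6 h, beside -0.14 and -0.11 for all genes. Of 14 listed, 9 were measured, of which 2 were higher and 3 lower at 12 h, and 1 was higher and none lower at 6 h. Without centring 1 was higher and 5 lower at 12 h, and 1 was higher and 4 lower at 6 h. With centring, 24.4% of all genes were higher and 33.1% lower at 12 h, and 18.2% and 31.3% at 6 h. Srebf1, the paralog of Srebf2 that favours fatty acid genes, stood at -0.47 at 12 h (probe SD 0.37, 2 probes) and 0.31 at 6 h (probe SD 0.25). Insig2, the paralog of Insig1, stood at -0.12 and -0.32 on 1 probe. The escort Scap stood at 0.51 at 12 h (probe SD 0.22) and -0.18 at 6 h (probe SD 0.16). The proteases that release SREBPs, Mbtps1 and Mbtps2, stood at -0.69 (probe SD 0.45) and -1.001 at 12 h, and at -0.34 and -0.41 at 6 h. Ufd1, a cofactor in the degradation of HMG-CoA reductase and INSIG, stood at 0.93 at 12 h (probe SD 0.57, 5 probes) and 0.53 at 6 h. Pgrmc1, a sterol-linked haem protein, stood at 1.09 and 0.36 on 1 probe. The paralogs Idi2, Scd2, Scd3 and Scd4 had no probe under their single name.

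Fatty acid genes lay close to 0 as a group, with Fasn among them. Of 26 listed, 18 were measured. Their median was 0.05 at 12 h, with 3 higher and 4 lower. At 6 h it was 0.11, with 1 higher and 2 lower, so that 15 of 18 lay within 1.5-fold of 0. Without centring 2 were higher and 7 lower at 12 h, and 0 higher and 5 lower at 6 h, with medians of -0.43 and -0.21. The centred shares of all genes were 24.4% higher and 33.1% lower at 12 h, and 18.2% and 31.3% at 6 h. The suppliers of substrate were mixed. Acly, which makes cytosolic acetyl-CoA from citrate, stood at 0.02 at 12 h (probe SD 0.09, 2 probes) and 0.18 at 6 h (probe SD 0.03). Me1, a source of NADPH, stood at 0.08 at 12 h (probe SD 0.30, 6 probes) and 0.19 at 6 h (probe SD 0.17). Both genes thus lay near 0, as Fasn did. The citrate carrier Slc25a1 stood at 1.39 at 12 h, 2.62-fold higher, and -0.04 at 6 h on 1 probe. Acss2, which makes acetyl-CoA from acetate, stood at -0.45 at 12 h and -1.02 at 6 h, 2.03-fold lower there, on 1 probe. Acacb, a carboxylase that makes malonyl-CoA, stood at -0.22 and -0.34 on 1 probe.

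The elongation genes Tecr and Elovl6 read on opposite sides of 0. Tecr, the reductase that ends each elongation round, stood at 1.45 at 12 h (probe SD 0.24, 3 probes) and 0.81 at 6 h (probe SD 0.27), the highest value of the list on both arrays. Elovl6, which lengthens palmitate to stearate, stood at -1.04 at 12 h (probe SD 0.73, 4 probes) and -1.49 at 6 h (probe SD 0.33). Both genes had all their measured probes on 1 side of 0 on both arrays. Elovl5, which elongates polyunsaturated chains, stood at -0.37 at 12 h (probe SD 0.01) and 0.04 at 6 h (probe SD 0.02), and Elovl1 at 0.52 (probe SD 0.53) and 0.49 (probe SD 0.38). The desaturase Fads1 stood at -0.72 at 12 h and 0.01 at 6 h on 1 probe.

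Lower readings in this list at 12 h also came from Acsl4, which activates arachidonate and stood at -1.30 at 12 h (probe SD 0.18, 2 probes) and -0.39 at 6 h (probe SD 0.16). Mid1ip1, an activator of acetyl-CoA carboxylase, stood at -1.15 at 12 h (probe SD 0.16, 3 probes) and -0.28 at 6 h (probe SD 0.63).

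**Figure D3:**
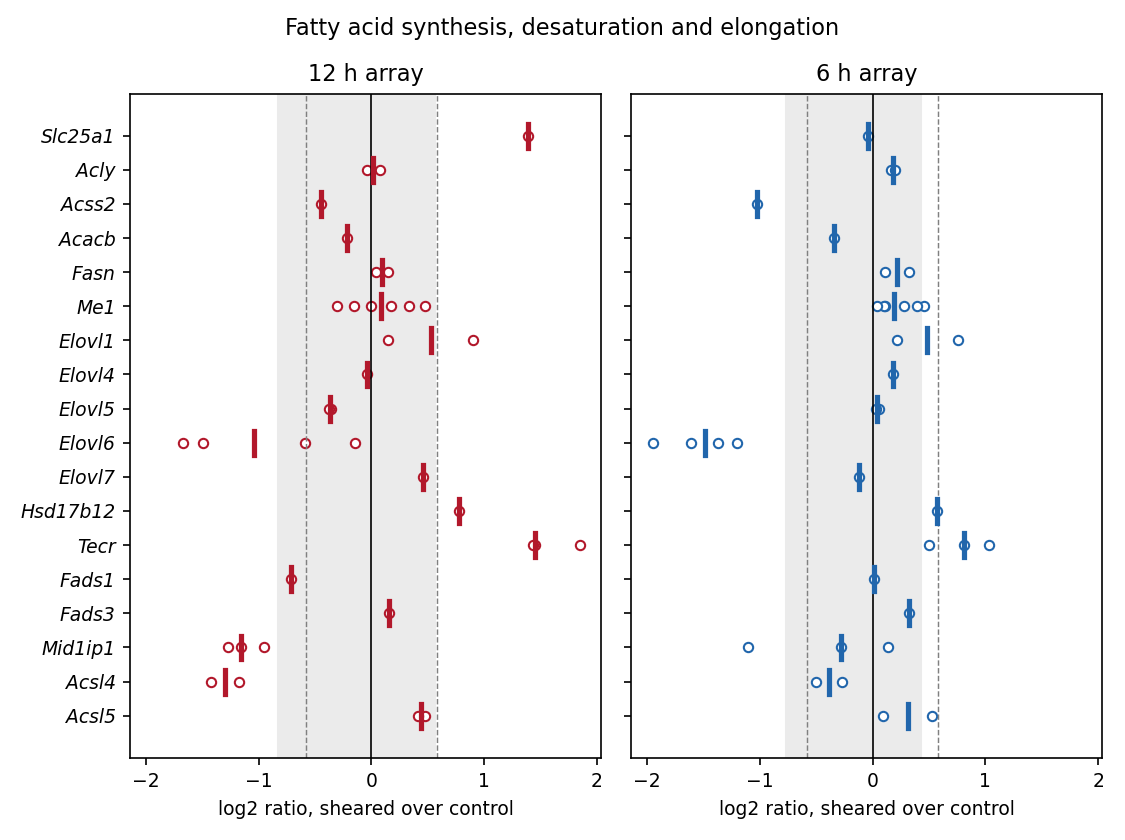
Log2 ratio of sheared over control (horizontal axis) for the 18 measured genes of fatty acid synthesis, desaturation and elongation, 12 h array on the left and 6 h array on the right. Circles are single probes, bars gene medians, dashed lines 1.5-fold and the grey band the quartiles of all genes. Fasn, Acly and Me1 cluster at 0, Tecr lies to the right and Elovl6 to the left on both arrays.

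The isoprenoid branch, which draws on the product of Fdps, had the highest median of the lipid lists at 12 h. Its median was 0.80 at 12 h, where 6 of 11 measured genes were higher and 1 lower. At 6 h it was 0.18, with 5 higher and 1 lower. Without centring 3 were higher and 4 lower at 12 h, with a median of 0.32 that was still the highest of the lipid lists, and 1 was higher and 1 lower at 6 h, with a median of -0.14. Of its 9 genes with 2 or more probes, 6 were higher and 1 lower at 12 h, and 5 and 1 at 6 h, with centring. Over all genes with that many probes 29.4% were higher and 27.5% lower at 12 h, and 20.7% and 23.6% at 6 h. Rabggta, the alpha subunit of the enzyme that prenylates Rab proteins, stood at 3.45 at 12 h (probe SD 0.97, 3 probes) and 1.37 at 6 h (probe SD 0.21), and Dhdds, of dolichol synthesis, at 1.35 (probe SD 1.75) and 0.70 (probe SD 0.61). Pggt1b, a geranylgeranyl transferase subunit, stood at -0.62 at 12 h (probe SD 1.54) and -1.06 at 6 h (probe SD 1.27).

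Cholesterol uptake and traffic genes had a median of -0.32 over 8 measured genes at 12 h and 0.14 at 6 h, 2 of them being higher and 2 lower at 12 h and 1 higher and 2 lower at 6 h. Without centring 1 was higher and 5 lower at 12 h, and 0 higher and 3 lower at 6 h, with medians of -0.80 and -0.19. Of all genes, with centring, 24.4% were higher and 33.1% lower at 12 h, and 18.2% and 31.3% at 6 h. The endocytic receptor Lrp1 stood at -1.48 at 12 h (probe SD 0.33, 3 probes) and -1.31 at 6 h (probe SD 0.33). The lysosomal cholesterol carrier Npc2 stood at 1.56 at 12 h (probe SD 0.71, 4 probes) and 0.72 at 6 h (probe SD 1.06), and the lipoprotein receptor Vldlr at -1.13 (probe SD 0.19) and -0.30 (probe SD 0.20).

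**Figure D4:**
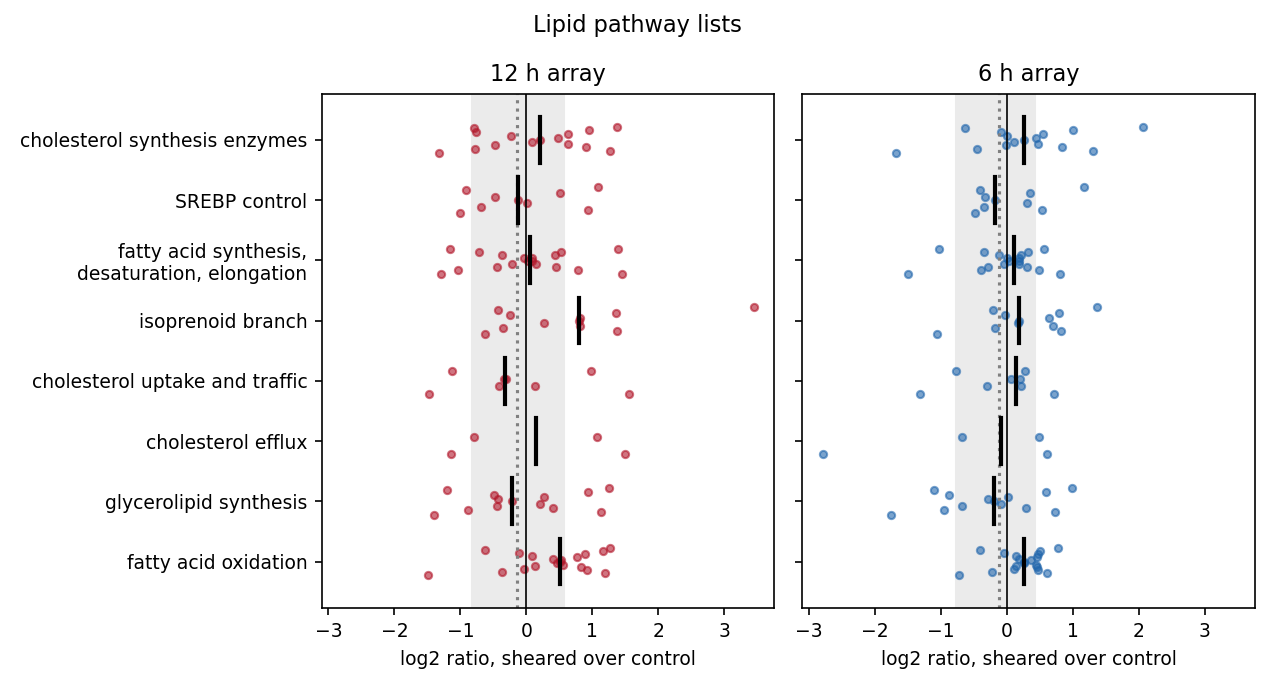
Log2 ratio of sheared over control (horizontal axis) for the genes of 8 lipid lists, 12 h array on the left and 6 h array on the right. Points are gene medians, black bars list medians, the grey band the quartiles and the dotted line the median of all genes. The cholesterol list sits at 0.20 at 12 h and 0.26 at 6 h with genes on both sides (both medians fall below 0 without centring), and the isoprenoid branch has the rightmost bar at 12 h.

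The cell type could be checked only in part on ratios, which hold no level. Of 15 tendon markers 9 were measured at 12 h and 8 at 6 h, with medians of -0.10 and 0.07, and the tendon factors Scx, Mkx and Tnmd had no probe under their single name. The tendon collagens Col1a1 and Col1a2 stood at -0.35 and -0.05 at 12 h and at -0.43 and 0.11 at 6 h, and the markers furthest from 0 were Egr1, at -1.81 at 12 h and 0.67 at 6 h, and Fmod, at 0.75 and 0.55. Adipocyte markers, a cell type rich in Fasn and Scd1, had a median of 0.02 over 9 genes at 12 h and -0.48 over 8 at 6 h. Those furthest from 0 over both arrays were Cebpa and Retn. Cebpa was higher on both, at 1.32 at 12 h (probe SD 0.02, 2 probes) and 1.31 at 6 h (probe SD 0.49). Retn was higher at 12 h only, at 1.91 (probe SD 2.41). At 6 h Retn stood at 0.41 (probe SD 1.15), with its probes on opposite sides of 0. The defining markers had gene values below 0. Adipoq stood at -1.02 at 12 h (probe SD 0.47, 2 probes) and -0.86 at 6 h (probe SD 1.02). Lpl stood at -0.40 at 12 h (probe SD 1.05, 6 probes) and -0.11 at 6 h (probe SD 0.78), with probes from -1.625 to 1.501 at 12 h. Fabp4 stood at -0.68 at 12 h alone, on 1 probe. Leukocyte, endothelial and skeletal muscle markers had medians of 0.80, -0.57 and 0.19 at 12 h, and 0.42, -0.42 and 0.31 at 6 h. The leukocyte markers furthest from 0 were Csf1r, at -2.31 at 12 h and -5.42 at 6 h on 1 probe, and Cd68, at 1.70 and 0.58 on 1 probe, while Ptprc had no probe under its single name. The endothelial ones were Pecam1 and Kdr, with 2 probes each. Pecam1 stood at -0.57 at 12 h (probe SD 1.70) and -2.03 at 6 h (probe SD 1.01). Kdr stood at -0.65 at 12 h (probe SD 0.57) and 1.76 at 6 h (probe SD 2.62). The muscle ones were Pvalb, at -2.14 at 12 h and 0.32 at 6 h, and Mb, at 0.95 and 0.38, each on 1 probe. Without centring the tendon median at 6 h, the adipocyte median at 12 h and both muscle medians fell below 0. Genes with 1 probe had a median of -0.31 at 12 h and -0.32 at 6 h, and genes with 2 or more probes 0.03 and 0.05. The part of cell mixture and probe number in the values of the members was not tested, and fewer cells of a type cannot be told apart from less RNA per cell.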

How the data were processed

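RNA of sheared and control mouse tenocytes was measured on 2 two-colour spotted arrays, 1 at 12 h and 1 at 6 h. The authors deposited a log2 ratio per spot for each array. Base 2 is assumed from the range of the values, -8.48 to 5.48, and the likely direction, Cy5 over Cy3, from the labelled dyes and the convention of the Stanford database that the labels link. Scanner, background correction and normalization: not given in the sources used here. Depth and spot brightness are unknown. Of 42624 spots, 41717 were measured at 12 h and 39776 at 6 h, giving 10733 and 10348 genes.

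Each array was centred on its median (pandas 2.3.3). Spot names came from GEO's platform annotation, with gene IDs looked up in RefSeq GRCm38.p6, where 21703 spots had 1 symbol, 1122 several and 19799 no gene. A gene's value is the median of its single-symbol probes. Recovery of known shifts was tested on simulated data. Members and lists were chosen with earlier results of these data known. Named, apart from a few genes not reported here, were all members and their paralogs, genes of the cholesterol, SREBP and fatty acid lists, and the 3 largest mean absolute values of other lists. Of cell type markers the 2 largest and the defining ones are named. No protein table was at hand, so the planned description by coding length was not made. Alternatives were no centring, probe means, 2 or more probes, genes on both arrays, shared probes kept, equal scale, print blocks of 900 spots, other folds and single probes or members left out.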

Additional observations from a re-analysis of the deposited data

Results flagged for a closer look

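Erlin2, which helps degrade HMG-CoA reductase and holds SREBP in the endoplasmic reticulum, was the single gene among the members, their paralogs and the cholesterol, SREBP and fatty acid lists that lay past 1.5-fold on opposite sides of 0 on the arrays. It stood at -0.91 at 12 h (probe SD 0.83, 3 probes) and 1.17 at 6 h (probe SD 1.33), a difference of -2.08. With 1 array per time the difference was not tested. Its probes read 0.24, -0.91 and -1.36 at 12 h, and 1.77, -0.77 and 1.17 at 6 h.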

How the results depend on the processing

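The members' medians moved by less than the pooled probe SD, 0.86 at 12 h and 0.74 at 6 h, under every alternative run. That SD is of single probes and is a wide bound for a median of 5 genes. Dropping the centring could not fail this measure, as it lowers the medians by only 0.48 and 0.32. Nor could probe means or genes on both arrays. No member had more than 2 probes and all 5 were on both arrays, so their values could not change. Without centring both medians changed sign, so their sign is not settled. The medians ranged from -0.39 to 0.36 at 12 h and from -0.06 to 0.63 at 6 h. Both upper limits came from leaving out single members, a setting chosen after seeing the data, and without that setting they were 0.30 and 0.41. Counts of members also moved. With centring, 1 member was higher and 0 were lower at 12 h at 2-fold, and at 3-fold 0 were higher on either array and 0 lower at 12 h. Without centring 1 was higher at 12 h and 1 lower at 6 h. Over the 3 members with 2 or more probes, 1 was higher and 1 lower at 12 h, and 1 was higher at 6 h. With both arrays on one scale 1 was higher at 12 h. The value of Idi1 at 12 h turned to -0.23 without its second probe and was 1.49 without its first. The efflux list moved to -0.79 at 12 h over its 3 genes with several probes. Changes in the counts follow from fewer genes, a stricter fold, the scale or the subtracted median. With shared probes kept, Srebf2 entered on 5 probes that it shares with other genes, and the medians were 0.30 and 0.41. Median differences between 12 h and 6 h ran from -0.48 to -0.19. No paired analysis was possible because each time point has 1 array. The number of arrays limits the precision, and signal over background is unknown.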

Other observations

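Genes that burn or store fatty acids were measured beside those that make them. Of 21 fatty acid oxidation genes 19 were measured, and at 12 h, with a median of 0.51, 7 were higher by 1.5-fold or more and 2 lower, beside 24.4% higher and 33.1% lower over all genes. Of the 18 with 2 or more probes 6 were higher and 2 lower, beside 29.4% and 27.5% of all genes with that many probes. Without centring 3 of the 19 were higher and 4 lower at 12 h, with a median of 0.03, beside 13.4% and 51.5% of all genes. At 6 h 2 were higher and 1 was lower, with a median of 0.27, and without centring 0 were higher and 2 lower, with a median of -0.06. Acadvl, which opens the oxidation of long chains, stood at 1.27 at 12 h (probe SD 0.06, 4 probes) and 0.78 at 6 h (probe SD 0.11). Echs1, the enoyl-CoA hydratase, stood at 1.16 (probe SD 0.29) and 0.61 (probe SD 0.48). Cpt1a, which gates entry of long chains into mitochondria, stood at -1.49 at 12 h (probe SD 1.63, 4 probes) and -0.41 at 6 h (probe SD 0.89).

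Of 13 measured glycerolipid synthesis genes 3 were higher and 3 lower at 12 h, and 3 were higher and 5 lower at 6 h. Without centring 2 were higher and 7 lower at 12 h, and 1 was higher and 6 lower at 6 h. Centred shares over all genes were 24.4% higher and 33.1% lower at 12 h, and 18.2% and 31.3% at 6 h. Lpin1, a phosphatidate phosphatase, stood at -1.40 at 12 h (probe SD 0.53, 3 probes) and -0.95 at 6 h (probe SD 0.29), and Gpam, which adds the first acyl chain to glycerol phosphate, at -1.21 and -1.10 on 1 probe. Chka, choline kinase, stood at 1.25 and 0.99 on 1 probe. Of the 4 measured efflux genes, Abca1, the exporter of cholesterol to apolipoprotein A-I, stood at -1.14 at 12 h (probe SD 0.84, 2 probes) and -2.78 at 6 h, where its probes had an SD of 3.34. Apoe stood at 1.08 (probe SD 0.85, 5 probes) and 0.61 (probe SD 0.77), and the phospholipid transfer protein Pltp at 1.49 and 0.49 on 1 probe.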
